A study of Rattus norvegicus with 3 samples.

Results

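The vasopressin receptors and urea transporters of the kidney comprised 5 genes, defined by name: the receptor genes Avpr2, Avpr1a and Avpr1b and the urea transporter genes Slc14a2 and Slc14a1. They were 5 of the 4390 genes named on a spotted rat array of 5760 probes. They were read by the 7 probes annotated with 1 of these symbols alone, and all 5 genes had a value on all 3 arrays. Each array set RNA of the kidney inner medulla of rats given lithium for 1 month (red, channel 1) against inner medulla of control rats (green, channel 2). Arrays 1 and 2 held RNA of 2 rats in each channel and array 3 held RNA of 1 rat in each, with different rats on every array, so the 3 arrays were 3 direct comparisons of 1 group. The labels used here name no strain, sex, age, lithium dose or diet.

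Vasopressin is the pituitary hormone that makes the kidney save water. Its V2 receptor, encoded by Avpr2, sits on the basolateral side of collecting duct cells and raises cyclic AMP through the stimulatory G protein, which brings the water channel Aqp2 to the luminal membrane and opens the urea transporters of the inner medullary collecting duct. The V1a and V1b receptors (Avpr1a, Avpr1b) signal instead through phospholipase C and calcium, the first mainly in vascular muscle and liver, the second mainly in the anterior pituitary. Slc14a2 encodes the UT-A urea transporters of the collecting duct and thin descending limb, and Slc14a1 encodes UT-B, the urea transporter of red cells and of the endothelium of descending vasa recta. Long lithium treatment causes nephrogenic diabetes insipidus, a poor response of the collecting duct to vasopressin, and the series compared medullary transcripts in this condition.

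Every value below is a log ratio centred on the median of its array. The base of the logarithm was not stated, so folds appear for both base 10 and base 2. A positive ratio was taken to mean a higher level with lithium. This reading is likely, because the labels put lithium RNA in channel 1, but the deposited table did not state it, and if the ratios ran the other way the sign of every value here would turn together. All 3 arrays had lithium in red, so a dye effect and an effect of lithium cannot be told apart for any gene. In inner medulla tissue a different share of a cell type and a different amount of RNA per cell cannot be told apart either. Over the 3819 genes or unnamed probes tested, 17 (0.445%) passed a limma adjusted p of 0.05, of which 9 (0.236%) were higher. The arrays correlated across probes at Pearson r = 0.624 (arrays 1 and 2), 0.490 (arrays 1 and 3) and 0.152 (arrays 2 and 3).

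None of the 5 genes passed. Avpr2, Slc14a2 and Slc14a1 had centred ratios above 0 on all 3 arrays, as did 24.1% of all features tested. For Avpr2 this depended on how the arrays were centred. Avpr1a and Avpr1b had both signs, and 0 of the 5 genes were below 0 on all 3 arrays, against 14.6% of all features. The limma adjusted p-values of the members ran from 0.261 to 0.958. Unadjusted p-values were under 0.05 for 2 of the 5 genes, against 17.2% of all features. The median of the 5 mean ratios was 0.09, and the median over all features was 0.01. Of the 5 means 4 lay above 0, as did those of 55.7% of all features (the background for the counts above 0 in the lists of other genes).

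**Figure D1:**
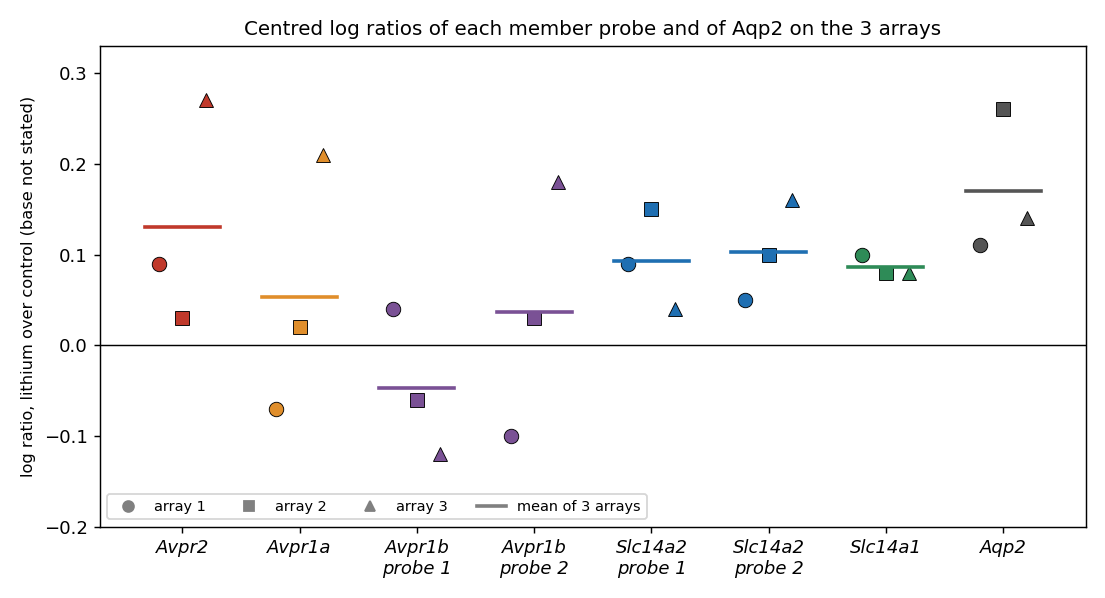
Centred log ratio of each probe of the 5 genes, and of the Aqp2 probe, on each of the 3 arrays (vertical axis, log ratio of lithium over control, base not stated). Symbols mark the arrays and each bar is the mean of the 3. Avpr2, Avpr1a and the second Avpr1b probe have their highest value on array 3, at 0.27, 0.21 and 0.18, while the first Avpr1b probe has its lowest value there, at −0.12.

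Avpr2, the receptor that couples vasopressin to water and urea transport, had the highest mean ratio of the 5 genes. Its single probe read 0.09, 0.03 and 0.27 on arrays 1, 2 and 3. The value of array 3, the array of single rats, stood apart from the other 2: 99.1% of the probes of that array were lower, against 84.9% on array 1 and 56.7% on array 2. These shares are over unlike sets of probes, as array 3 had values for 4287 probes and arrays 1 and 2 for 5582 and 5682. The mean was 0.13 ± 0.12 (SD, n = 3), with a 95% interval from 0.00 to 0.26 in limma. That is 1.35-fold in base 10 (1.01 to 1.81) or 1.09-fold in base 2 (1.00 to 1.20), and limma gave an adjusted p of 0.278. Its SD was larger than that of 85.0% of all features. Without array 3 the mean was 0.06, and the deposited value on array 2, before centring, was −0.01. The array 2 value was also −0.01 with arrays centred on the features measured on all 3 arrays. The median of those features on array 2 was 0.04 under the centring used here.

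The readings of Avpr2 moved with the median of the print block that holds its probe. Print blocks were read from the first 2 fields of each probe's identifier, which were taken as its place on the array. This gave 32 blocks of 180 probes each. The median of the Avpr2 block was 0.00, −0.06 and 0.12 on the 3 arrays. On array 2 only 1 of the 32 blocks had a lower median, and on array 3 as many as 30 did. With each block's own median subtracted, Avpr2 stood at 0.09, 0.09 and 0.15, which is 0.11 ± 0.03 (SD, n = 3). The ratio was then of similar size on all arrays, and the SD was 0.0346 in place of 0.125. The probe of Avp, the vasopressin gene itself, lay in the same block and read 0.02, −0.01 and 0.15 before and 0.02, 0.05 and 0.03 after this step.

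Avpr1a, the receptor of vascular muscle that acts through phospholipase C, had no settled sign. Its probe read −0.07, 0.02 and 0.21, from below 0 on array 1 to a value above 97.4% of the probes on array 3. The mean was 0.05 ± 0.14 (SD, n = 3), or 1.13-fold in base 10 with a 95% interval from 0.825 to 1.55, and limma gave an adjusted p of 0.677. Its SD was larger than that of 90.2% of all features, and the mean without array 3 was −0.03. The block of this probe had medians of −0.05, 0.03 and 0.09, low on array 1 and, like the Avpr2 block, high on array 3. With the block median subtracted the probe read −0.02, −0.01 and 0.12, with a mean of 0.03 ± 0.08.

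Avpr1b, the receptor of the pituitary, was read by a pair of probes that disagreed. The first probe read 0.04, −0.06 and −0.12, and the second read −0.10, 0.03 and 0.18. They lay on opposite sides of 0 on every array, in one order on array 1 and the other on arrays 2 and 3. On array 3 they differed by 0.30, more than the probes of 94.9% of the 108 genes whose 2 probes share an accession, as these do, and the median difference of such genes there was 0.08. Averaged, the gene stood at −0.03, −0.015 and 0.03, with a mean of −0.005 ± 0.03 (SD, n = 3) and a limma adjusted p of 0.958. In base 10 the 95% interval of the fold ran from 0.798 to 1.22. This narrow SD came from averaging opposed probes, whose own SDs were 0.0808 and 0.140. The second probe lay in the same print block as the Avpr1a probe, and the readings of these 2 probes of different genes differed by 0.03, 0.01 and 0.03. With block medians subtracted the 2 Avpr1b probes read −0.01, −0.09 and −0.14 for the first and −0.05, 0.00 and 0.09 for the second, so they still disagreed on array 3. Whether the Avpr1b probes also bind related receptor transcripts was not tested.

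**Figure D2:**
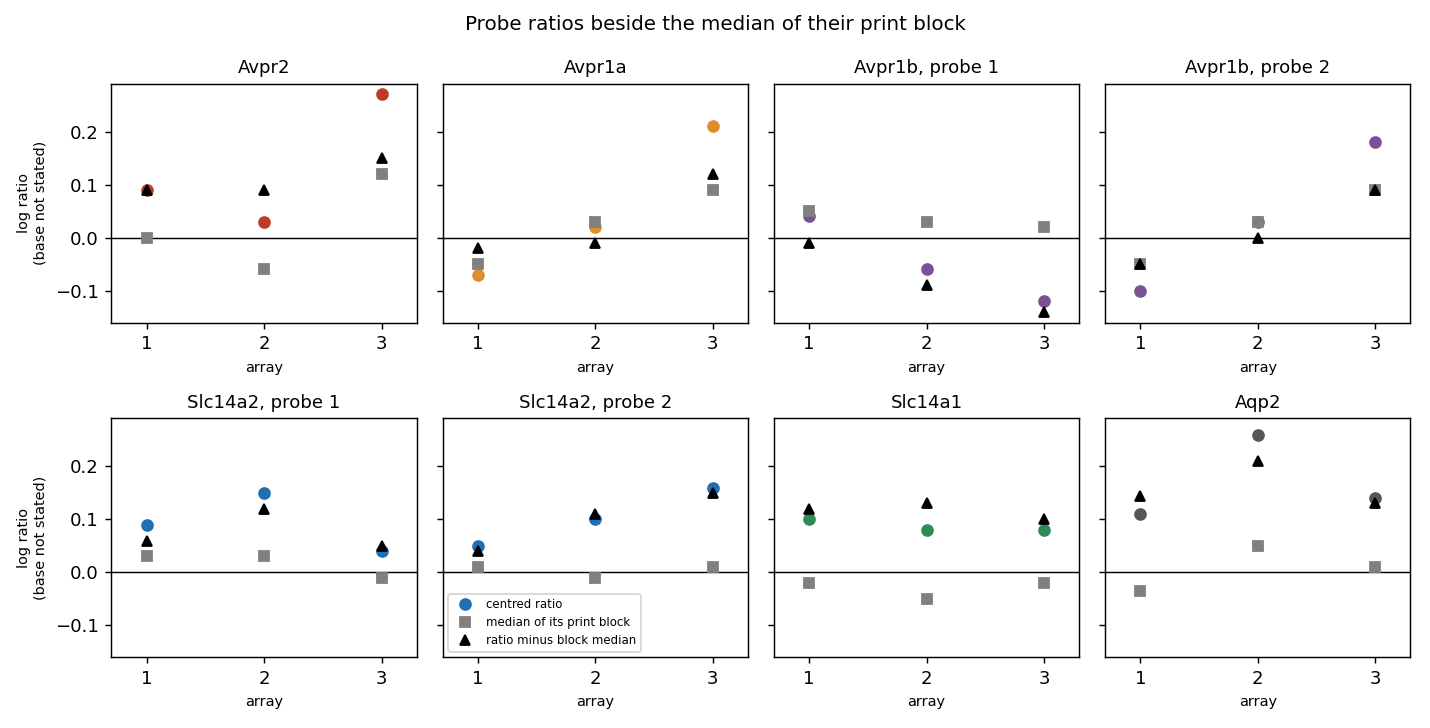
Centred ratio of each member probe and of Aqp2 (coloured circles) on arrays 1 to 3, with the median of the probe's own print block (grey squares) and the difference of both (black triangles), all as log ratios of unstated base. The block of Avpr2 runs from −0.06 on array 2 to 0.12 on array 3, and with it subtracted Avpr2 lies between 0.09 and 0.15. The blocks of the Slc14a2 probes stay between −0.01 and 0.03.

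The urea transporter genes had mean ratios slightly above 0 and did not pass. Slc14a2, which encodes the vasopressin-regulated UT-A transporters, was read by a pair of probes. The first read 0.09, 0.15 and 0.04, and the second 0.05, 0.10 and 0.16. All 6 readings were above 0. The probes differed by 0.04, 0.05 and 0.12 on the 3 arrays, and among genes with such a same-accession pair of probes 22.7%, 25% and 62.5% had a smaller difference. Averaged, Slc14a2 stood at 0.07, 0.125 and 0.10, with a mean of 0.10 ± 0.03 (SD, n = 3) and a 95% interval from 0.01 to 0.19. The SD of the average was smaller than that of either probe, 0.0551 each, since the probes ranked arrays 1 and 3 in opposite order. That is 1.25-fold in base 10 (1.01 to 1.55) or 1.07-fold in base 2 (1.00 to 1.14), with a limma adjusted p of 0.261, the lowest of the 5 genes. With block medians subtracted it was 0.09 ± 0.03, an SD like that of Avpr2 after the same step.

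Slc14a1, the UT-B gene of red cells and vasa recta, had nearly even values after centring. Its single probe read 0.10, 0.08 and 0.08, so the arrays differed by no more than 0.02. Before centring they were 0.08, 0.04 and 0.08, with an SD of 0.0231, and the members kept the same order by SD. That order changed with block medians subtracted and with arrays centred on the features measured on all 3 arrays. With the latter the SD was 0.0265 for Slc14a1 and 0.0202 for Slc14a2. Under the centring used here the mean of Slc14a1 was 0.09 ± 0.01 (SD, n = 3), with a 95% interval from 0.00 to 0.18. Only 2.03% of all features had a smaller SD. The fold was 1.22 in base 10 (0.991 to 1.50) or 1.06 in base 2 (0.997 to 1.13), with a limma adjusted p of 0.306. With its block's median subtracted the probe read 0.12, 0.13 and 0.10, and the mean was 0.12 ± 0.02. The limma interval is wider than this SD alone would give, because limma draws the variance of each feature toward a common value, here an SD of 0.0782 with 5.15 prior degrees of freedom.

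Slc14a1 and Slc14a2 are neighbours on rat chromosome 18, with 0 protein-coding genes between them in the RefSeq table of assembly GRCr8, and lie on the same strand. RefSeq gives Slc14a2 starts 393 kb apart, and which of its transcripts the probes read is not stated in the labels or the annotation used here. The 250 bases before each start are shown because these neighbouring genes had the ratios closest to each other of the 5. They are in lower case, with the letters TATAAA of a TATA box in capitals. The windows, all on the minus strand of GRCr8, are chr18:74314547-74314796 (outer start of Slc14a2), chr18:73921585-73921834 (inner start of Slc14a2) and chr18:73864644-73864893 (Slc14a1).
Slc14a2, outer start: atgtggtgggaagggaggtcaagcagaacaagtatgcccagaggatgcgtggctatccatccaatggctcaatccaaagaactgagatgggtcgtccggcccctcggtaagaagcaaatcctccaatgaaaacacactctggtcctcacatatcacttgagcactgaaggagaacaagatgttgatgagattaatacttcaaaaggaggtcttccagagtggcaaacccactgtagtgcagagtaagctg
Slc14a2, inner start: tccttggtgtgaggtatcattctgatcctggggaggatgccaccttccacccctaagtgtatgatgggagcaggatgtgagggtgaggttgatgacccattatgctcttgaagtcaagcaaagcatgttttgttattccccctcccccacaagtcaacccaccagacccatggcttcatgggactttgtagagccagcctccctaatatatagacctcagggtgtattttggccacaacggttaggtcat
Slc14a1: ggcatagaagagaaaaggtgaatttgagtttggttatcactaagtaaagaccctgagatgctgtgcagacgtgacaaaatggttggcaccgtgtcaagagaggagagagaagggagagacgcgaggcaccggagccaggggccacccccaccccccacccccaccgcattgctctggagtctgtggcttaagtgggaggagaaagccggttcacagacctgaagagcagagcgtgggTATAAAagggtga
The Slc14a1 window holds the letters TATAAA, with their first base 13 bases before the start, and neither Slc14a2 window holds them. Whether these letters act as a TATA box was not tested. Searched on both strands, TATAAA was found in 12.9% of the 33469 RefSeq windows of this length. The cyclic AMP response element TGACGTCA, its shorter core TGACG and the core TGGAAA of the tonicity-responsive element were in 0 of the 3 windows, against 1.59%, 18.2% and 19.7% of all windows (TGACG is contained in TGACGTCA). This describes these letters in these windows only.

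**Figure D3:**
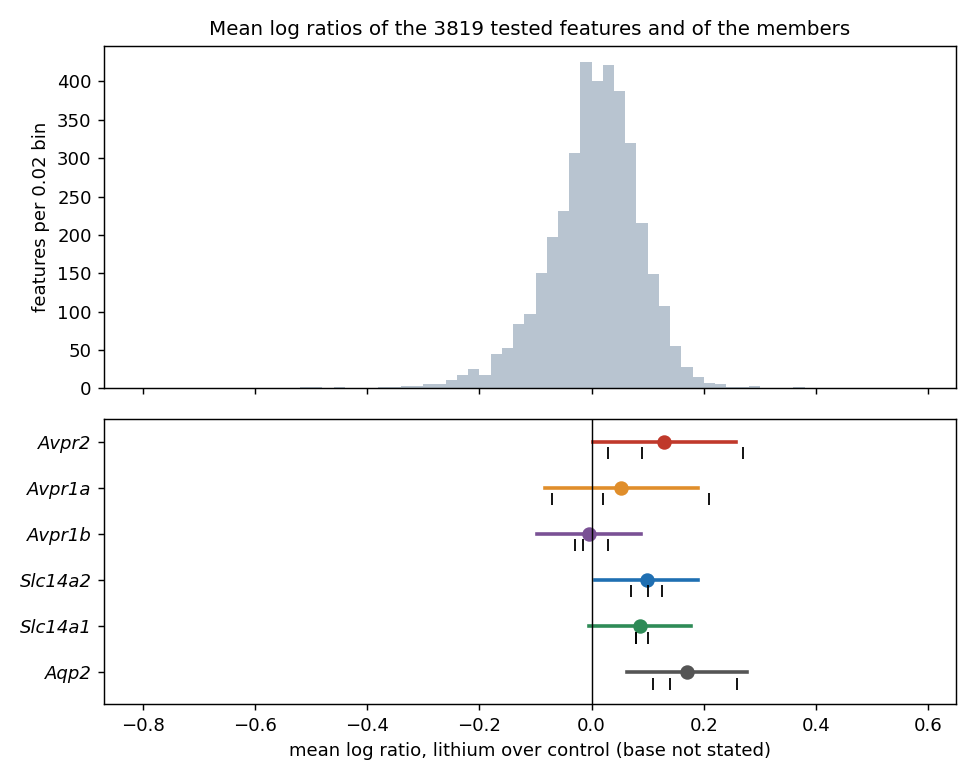
Upper panel, number of features per 0.02 bin of mean log ratio over the 3819 features tested. Lower panel, mean (point) and limma 95% interval (line) of the 5 genes and of Aqp2 on the same axis (log ratio, lithium over control, base not stated), with the 3 arrays as ticks under each line. The means of Avpr2, Slc14a2 and Slc14a1 lie above those of 95.2%, 89.2% and 85.9% of all features, and Avpr1b lies at the centre.

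The order of the mean ratios was Avpr2 (0.13), Slc14a2 (0.10), Slc14a1 (0.09), Avpr1a (0.05) and Avpr1b (−0.005), and neighbours in this order did not differ beyond their spread. Among the 10 pairs of members, 4 kept 1 order on all 3 arrays. Avpr1b was below Slc14a2 on every array, with differences of −0.10, −0.14 and −0.07, and below Slc14a1 with differences of −0.13, −0.095 and −0.05. Avpr2 was above Avpr1a by 0.16, 0.01 and 0.06 and above Avpr1b by 0.12, 0.045 and 0.24. The 3 pairs with Avpr1b rest on the average of its disagreeing probes. Its second probe alone read 0.18 on array 3, above both urea transporters, and 0.03 on array 2, level with Avpr2. An exact sign-flip permutation test of 3 arrays cannot go below a two-sided p of 0.25, which these 4 pairs reached (0.625 after Benjamini-Hochberg adjustment over the 10 pairs). The difference between Slc14a2 and Slc14a1 was 0.01 ± 0.04 (SD, n = 3).

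The genes with the closest readings were found by the largest absolute difference on any of the 3 arrays, among 3394 other named genes. For Avpr2 they were Tf (transferrin, 0.015), Tpt1 (0.03) and Dvl1 (0.04), and 13 genes lay within 0.05 of Avpr2 on every array. For Avpr1a they were Pak2 and Tff3 (0.02 each) and Sult1a1 (0.03), and 8 genes lay within 0.05. Slc14a2 was matched within 0.005 by Eif2ak3 and within 0.01 by Adam10 and Dhcr7, Slc14a1 within 0.01 by Atp2b2, Fbxl20 and Ntrk3, and Avpr1b within 0.01 by Abcb6, Adcyap1r1 and Il1rn. As many as 158, 182 and 151 genes lay within 0.05 of these 3 members. Readings like those of the urea transporters were therefore common, and readings like those of Avpr2 and Avpr1a, with a high array 3, were less so.

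The genes listed around the V2 signal lay on both sides of 0. The list mixes genes that pass the signal on with genes that restrain it, such as phosphodiesterases and inhibitors of protein kinase A. Its counts and median therefore give no direction for the signal itself. Of 30 measured genes of the V2 receptor and cyclic AMP pathway, 0 passed (7 had an unadjusted limma p under 0.05), 16 lay above 0 and 14 below, and the median was 0.01. Aqp2, the water channel that V2 signalling brings to the membrane, read 0.11, 0.26 and 0.14, a mean of 0.17 ± 0.08 (SD, n = 3, limma adjusted p = 0.153) that was above Avpr2 on arrays 1 and 2 and below it on array 3. Lithium is known to lower Aqp2 protein in the collecting duct. The ratio here is of RNA, lay above 0 on all 3 arrays and did not pass. Protein was not measured, and why the RNA ratio lay on this side of 0 was not tested. The assumed direction of the ratios was not tested. Adcy2, an adenylyl cyclase, read −0.27, −0.18 and −0.17 (adjusted p = 0.105), below 0 on every array. Prkar2b, a regulatory subunit of protein kinase A, read −0.20, −0.73 and −0.15 (adjusted p = 0.176), far lowest on array 2. Of the core chain, Gnas, the stimulatory G protein alpha subunit, had a mean of −0.04, Adcy6, a cyclase of the collecting duct, 0.10, and Prkaca, the catalytic subunit of protein kinase A, 0.03. The hormone gene Avp, which is made in the hypothalamus, stood at 0.05 ± 0.09.

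Genes of the V1 branch and of receptor shut-off were spread around 0 as well. Of 20 genes of the phospholipase C pathway, 10 lay above and 10 below 0, the median was 0.005, and 1 passed. That gene was Dgkz, a diacylglycerol kinase that removes the messenger made by phospholipase C, which fell by 0.35 ± 0.03 (SD, n = 3, limma adjusted p = 0.0234), with −0.38, −0.33 and −0.33 on the 3 arrays. The calcium-dependent kinase gene Camk2a had a mean of −0.25 (adjusted p = 0.0782) and the inositol trisphosphate receptor gene Itpr1 a mean of 0.12 (adjusted p = 0.205). Of 13 genes of receptor desensitisation and inhibitory G proteins, 0 passed (4 had an unadjusted p under 0.05), 8 were above 0 and 5 below, with a median of 0.02. Gnai3, an inhibitory alpha subunit, stood at 0.18 ± 0.05, Rgs12, a regulator of G protein signalling, at 0.17 ± 0.09, and Grk4, a receptor kinase, at −0.15 ± 0.08 (SD, n = 3, limma adjusted p from 0.128 to 0.177). Of 11 related peptide hormones and receptors, 0 passed (2 under 0.05 unadjusted), with a median of 0.02. This median was 0.0275 without array 1, −0.045 without array 2 and 0.005 without array 3. Over the 15 of these genes measured on at least 2 arrays it was −0.0533. Pth1r, the parathyroid hormone receptor, read −0.14, −0.11 and −0.12, Glp1r had a mean of −0.11, Ptger1, a prostaglandin receptor, one of −0.07, and Oxtr, the oxytocin receptor, one of 0.04.

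Of 7 measured genes for enzymes that make or release urea and nitrogen compounds, 0 passed (2 under 0.05 unadjusted). Their median was 0.07, with 5 genes above 0, Ass1 below it and Glul at 0. Asl, argininosuccinate lyase, read 0.11, 0.08 and 0.16 (limma adjusted p = 0.215), Arg2, the mitochondrial arginase that releases urea in kidney, read 0.11, 0.255 and 0.06 (adjusted p = 0.216), and Otc, ornithine transcarbamylase, had a mean of 0.08. Of 6 genes of the response to hypertonicity, which in the medulla goes with a high urea and salt content, 0 passed (3 under 0.05 unadjusted) and the median was 0.03. Akr1b1, aldose reductase, read −0.31, −0.28 and −0.21 (adjusted p = 0.0616), S100a4 had a mean of −0.24 and the amino acid transporter gene Slc38a2 one of 0.14.

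**Figure D4:**
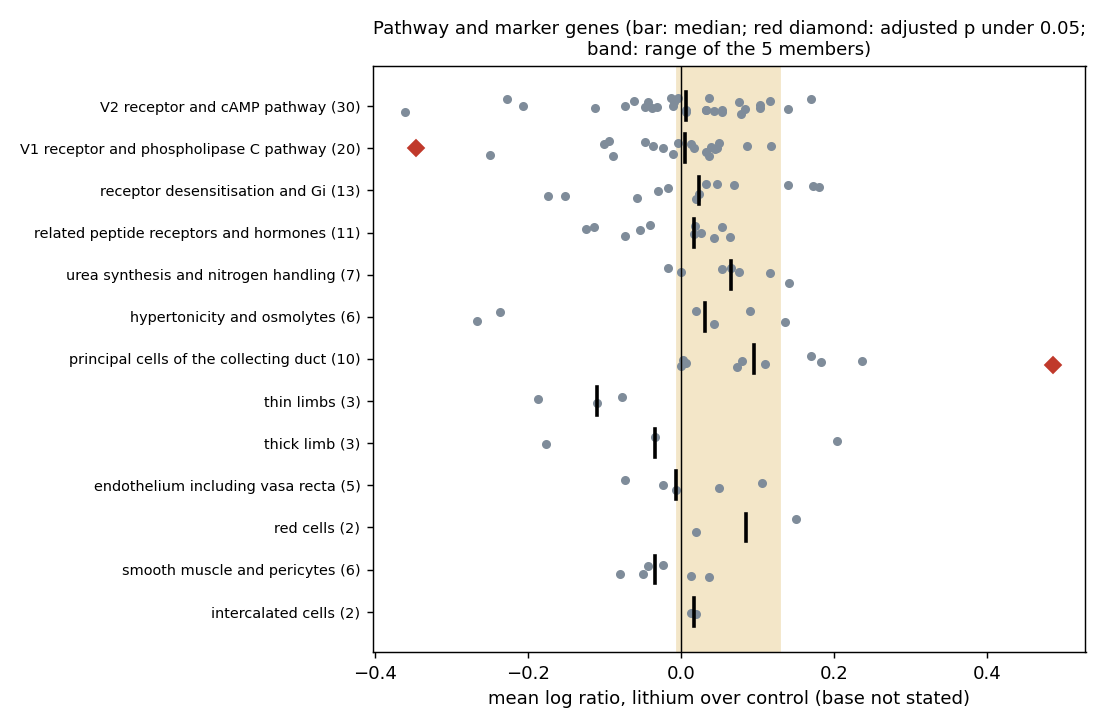
Mean log ratio (horizontal axis, lithium over control, base not stated) of each measured gene of the pathway lists and cell type marker lists, with the number of genes in brackets. Black bars are list medians, red diamonds are genes with a limma adjusted p under 0.05, and the band spans the means of the 5 members. The principal cell markers have a median of 0.095 with Hsd11b2 far above the band, and the 3 thin limb markers all lie below 0.

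Several markers of the cells that carry these genes had mean ratios further from 0 than any member, and their part in the members' ratios was not tested. All 10 listed markers of principal cells, the collecting duct cells that carry Avpr2 and Aqp2, had values on all 3 arrays. Their median was 0.095, and by array 0.07, 0.13 and 0.09. Of these 10, 9 lay above 0 and 1 at 0, and 5 had an unadjusted limma p under 0.05, against 55.7% and 17.2% of all features. Hsd11b2, which inactivates glucocorticoids, was the 1 that passed (0.49 ± 0.10, SD, n = 3, limma adjusted p = 0.0234). Scnn1b and Scnn1g, subunits of the epithelial sodium channel, had ratios of 0.24 ± 0.09 and 0.18 ± 0.06 and did not pass. Aqp3 and Krt8 stood at 0.007 and 0.003, below the median of all features (0.0133), and Krt18 was the 1 at 0. Each of them had values of both signs. Thin limb markers, of the segment where UT-A also sits, were all 3 below 0 with a median of −0.11, and 2 of them had an unadjusted p under 0.05. Aqp1 stood at −0.19 ± 0.08, Bst1 at −0.11 ± 0.05 and Cryab at −0.08 ± 0.08 (SD, n = 3), and none passed. The 5 endothelial markers measured are of endothelium in general, not of the descending vasa recta alone, where Slc14a1 sits. They had a median of −0.01, with Tie1 at 0.11 and Plvap and Flt1 at −0.07 and 0.05. Of the red cell genes Hba-a1 read 0.16, 0.09 and 0.20 and Slc4a1 had a mean of 0.02. The 6 markers of smooth muscle and pericytes, which bear on Avpr1a, had a median of −0.03, with Pdgfrb, Acta2 and Tagln at −0.08, 0.04 and −0.05. The thick limb had a median of −0.03 over 3 genes, with Kcnj1, Umod and Egf at 0.20, −0.18 and −0.03, and the 2 intercalated cell genes Slc4a1 and Car2 stood at 0.02 and 0.01. Apart from Hsd11b2 no marker passed, and an unadjusted p under 0.05 was found for 2 of the 3 thick limb genes, 1 of the 5 endothelial genes, 1 of the 2 red cell genes and 0 of the muscle and intercalated cell genes. Since the table holds ratios only, whether a marker was bright or near background is unknown.

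Whether a member counted as different depended on how the arrays were weighted. With limma's array weights, which gave array 1 a weight of 4.52 against 0.371 and 0.596 for arrays 2 and 3, Avpr2 (0.11, adjusted p = 0.0418) and Slc14a1 (0.10, adjusted p = 0.0234) passed, but so did 1055 of 3819 features. Over 13 alternatives the adjusted p of Avpr2 ran from 0.0418 to 0.742 and that of Slc14a1 from 0.0234 to 0.753. Slc14a2 passed in 0 of 14 alternatives (0.0521 to 0.742). The mean ratios of Avpr2, Slc14a2 and Slc14a1 stayed above 0 in every one of these alternatives, from 0.06 to 0.18, 0.08 to 0.11 and 0.07 to 0.12. Only the settings that changed the centring could have turned these means. The others kept the ratios as they were, or left out, weighted or rescaled arrays whose values were all above 0.

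**Figure D5:**
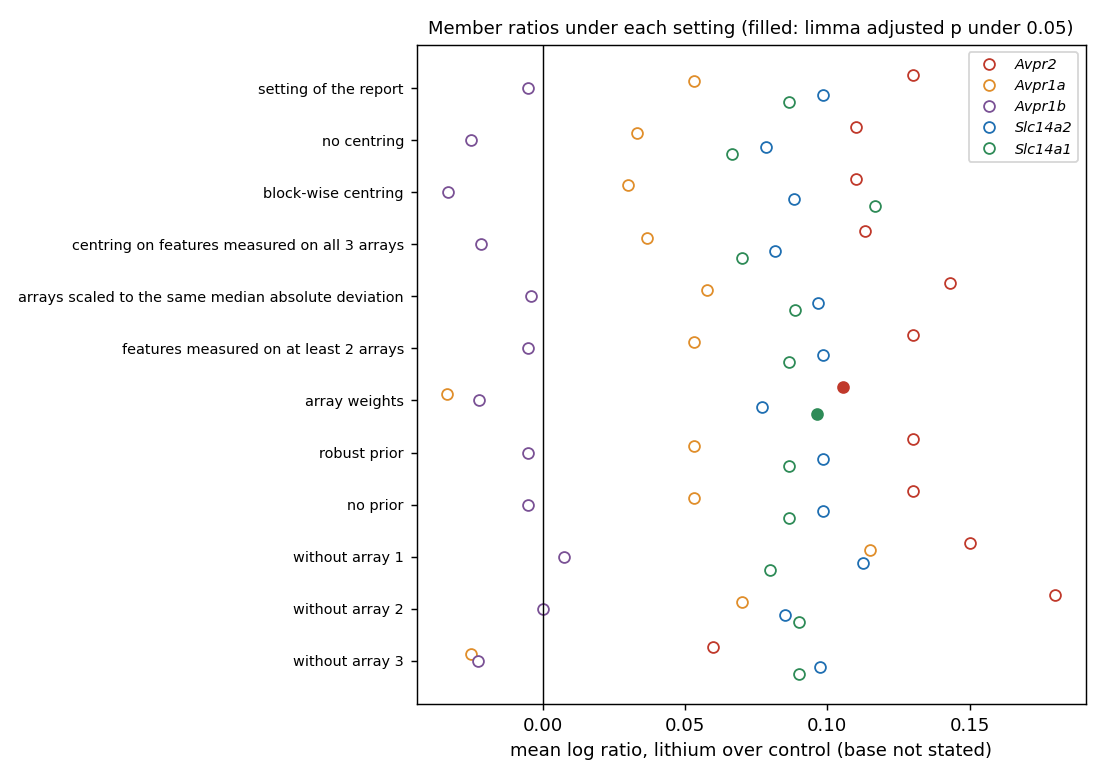
Mean log ratio of the 5 genes (horizontal axis, lithium over control, base not stated) under the setting of the report and 11 alternatives, open where the limma adjusted p was 0.05 or more and filled where it was lower. Avpr2, Slc14a2 and Slc14a1 lie above 0 throughout, Avpr1a and Avpr1b lie on both sides of 0 or at it, and the filled points are Avpr2 and Slc14a1 under array weights.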

How the data were processed

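The deposited table held 1 log ratio per probe and array, with 2 decimals, as the authors deposited it. How the slides were scanned, corrected, normalized and filtered, and which log base was used, is not given in the sources used here. Before centring, array medians were −0.02, −0.04 and 0.00. Probes were named from the platform annotation: 5064 of 5760 had 1 symbol, 9 several and 687 were not listed. Gene IDs were looked up in the RefSeq table of GRCr8, which holds those of 4 of the 5 genes; it lists Avpr1b under another ID. Each array was centred on its median, probes of 1 gene ID were averaged, and the 3819 features measured on all 3 arrays were tested in limma 3.58.1 (R 4.3.3; intercept-only lmFit, eBayes, two-sided, Benjamini-Hochberg). The fit was tested on simulated data. Named genes are the members, Aqp2, list genes that passed, the 3 genes of smallest p per list, and Gnas, Adcy6, Prkaca, Avp, Oxtr and Arg2; Arg1, also on that list, had no value on array 3. Ass1, Glul, Aqp3, Krt8 and Krt18 were added after their values were seen. The members, lists and alternatives were chosen with earlier results of these data known. 1 alternative, features by symbol instead of by gene ID, was added after seeing the data. Tables and figures were made with matplotlib 3.10.9, numpy 2.4.6 and pandas 2.3.3 under Python 3.11.15.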

Additional observations from a re-analysis of the deposited data

How the results depend on the processing

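Set against the alternatives, the mean ratios of the members did not turn and stayed on their side of the threshold in 61 comparisons (Avpr1b was at 0 without array 2), turned in 4 and newly passed in 2. Many of the 61 could not turn, because the setting kept the ratios as they were or only reweighted arrays of the same sign. With array weights Avpr2 (0.11) and Slc14a1 (0.10) passed, and Avpr1a turned to −0.0335. Avpr1a was −0.025 without array 3. Avpr1b was 0.0367 in its second probe alone and 0.0075 without array 1. With 1 array left out, the means ran from 0.06 to 0.18 for Avpr2, −0.025 to 0.115 for Avpr1a, −0.0225 to 0.0075 for Avpr1b, 0.09 to 0.11 for Slc14a2 and 0.08 to 0.09 for Slc14a1. The 17 calls over all features (9 higher, 8 lower) became 0 (0 and 0) without array 1, 2 or 3 (172, 606 and 445 at an unadjusted p of 0.05), 98 (35 and 63) with arrays scaled to the same spread, 40 (4 and 36) with features measured on at least 2 arrays, 1055 (582 and 473) with array weights, 94 (35 and 59) with a robust prior, 49 (20 and 29) at an adjusted p of 0.10, 11 (5 higher) with single probes and 8 (2 lower) with no prior. The cause was not tested, other than that fewer arrays or a looser threshold change the count by construction. Medians of the larger gene lists stayed within the SD of their medians by array in 46 comparisons and moved further in 17. Each array was itself a direct comparison of lithium with control, and the fit used these ratios. The arrays form 1 group, so no further pairing was possible. The 3 arrays and the unstated log base limit the precision, and spot brightness is unknown.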
